A study of Mus musculus with 2 samples.

Results

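Voltage-gated calcium channel subunit genes were followed in mouse mesenteric artery, the set of resistance arteries that supplies the intestine. The members were 10 genes taken by symbol from this channel family: the pore genes Cacna1c, Cacna1d, Cacna1g and Cacna1h, the β genes Cacnb1, Cacnb2, Cacnb3 and Cacnb4, and the α2δ genes Cacna2d1 and Cacna2d2. All 10 were matched to a row by Ensembl identifier, of 55573 genes listed. RNA-seq was made from arteries of wild type C57BL/6 mice, 10 weeks old, and 1 library came from arteries kept in 5 mM K+ (control) and 1 from arteries depolarized with 60 mM K+, each for 60 min and each pooled from 2 mice. All solutions contained tetrodotoxin, which blocks voltage-gated sodium channels of nerves. The sample labels give the same time for both libraries, and the paper's main text describes perfusion with either solution. The supplementary methods instead describe control arteries as taken from the distal side of a ligature after incubation without perfusion. The remaining tissue was then perfused with 60 mM K+. If the supplementary description holds for the sequenced arteries, artery segment, time in solution and perfusion cannot be told apart from K+. With 1 library per condition no difference has a replicate check, so no p-value is given and each comparison below is between these 2 libraries.

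A voltage-gated calcium channel opens when the membrane depolarizes and lets calcium into the cell. The α1 subunit forms the pore and the voltage sensor, and it gives the channel its type. Cacna1c and Cacna1d encode the pores of the L-type channels Cav1.2 and Cav1.3, of which Cav1.2 opens at strong depolarization. Cacna1g and Cacna1h encode the T-type pores Cav3.1 and Cav3.2, which open near the resting potential and close quickly. β subunits sit on the inner side of the L-type pore and help carry it to the membrane, and α2δ subunits lie mostly outside the cell and raise the current. In arterial smooth muscle the L-type channel of Cacna1c supplies the calcium for contraction, and it is the target of dihydropyridine drugs used against high blood pressure.

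The control library held 10480918 reads assigned to genes, and the depolarized one held 11289598. Levels are given as FPKM, fragments per kilobase of gene and per 1000000 counted reads, as deposited, because only a value per length can be compared between genes. Differences between the libraries are given as log2 ratio, the 60 mM K+ value over the 5 mM K+ value, of reads after TMM scaling in edgeR, which sets the bulk of the genes of both libraries equal. The 95% interval after each log2 ratio is an exact (Clopper-Pearson) interval and, like the Poisson intervals of the levels, covers counting error only, since reads are not independent molecules. FPKM was scaled by total reads, and that scaling lowers every log2 ratio by 0.21, so FPKM shows larger decreases than the log2 ratio does.

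The tissue carried its smooth muscle genes. Of 8 smooth muscle markers, which included Myh11, Acta2 and Cnn1, all 8 had at least 10 reads. Their summed level was 36884 counts per 1000000 (CPM) in the control and 40487 CPM in the depolarized library, a log2 ratio of 0.13. Summed adipocyte markers were lower in 60 mM K+, at 84.5 and 39.4 CPM, with 4 of 5 genes whose interval lay below 0 and 1, Lep, above 0. Summed fibroblast markers were 6654 and 5540 CPM, with 5 of 6 genes below 0. Endothelial markers summed to 2936 and 3978 CPM, with 4 of 6 above 0 and 1, Kdr, below. Pancreas markers, at 11.5 and 39.0 CPM, had 5 of 8 genes above 0, while of the islet genes Ins2 had 3 and 2 reads and Ins1 and Gcg had 0 reads in both libraries. Macrophage markers were at 31.6 and 31.0 CPM and markers of striated muscle at 44.6 and 46.8 CPM. Nerve and Schwann cell markers were at 145 and 164 CPM, with 2 of 8 genes above 0 and 1 below. Of the neuronal genes in that list, Uchl1 had 583 and 770 reads and Tubb3 had 7 and 19 reads, both with an interval above 0, and Snap25, Syt1 and Th had 0 reads in both. The part of these cell types in the differences below was not tested. In tissue of mixed cells, fewer cells of a type and less RNA per cell cannot be told apart.

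All 4 pore genes were lower in the depolarized library, Cacna1c at 0.605, Cacna1h at 0.588 and Cacna1g at 0.341 times its control value. Cacna2d1 lay near 0, and the β genes Cacnb1, Cacnb2 and Cacnb3 lay between these and the pore genes. Of the 10 members, 2 passed a log2 ratio of -1, Cacna1d and Cacna1g, beside 5.86% of all 14829 genes whose reads summed to 10 or more. None of the 10 passed a log2 ratio of 1, beside 5.54% of those genes. With total-count scaling the shares of all genes were 8.67% below -1 and 4.05% above 1. The counting interval lay below 0 for 5 members, the 4 pore genes and Cacnb2, beside 20.3% of all genes, and above 0 for none, beside 25%. A random-sampling test written from the published formula of DEGSeq, which compares libraries and not conditions, called 1 member lower, Cacna1g, and none higher, beside 1.1% and 2.11% of 21374 genes. A call needed an adjusted p-value (q) under 0.005 and a log2 ratio past 1 or -1. Cacna1c and Cacna1h were under that q and missed a call by the log2 ratio alone. The test is not the study's own run, and its calls are not the study's calls. The median log2 ratio of the 10 members was -0.49, and that of all genes was -0.0047.

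The pore genes came in a steep order of level. Cacna1c (chromosome 6, 118542314 to 119146249, mm9, minus strand), which encodes Cav1.2, had 1890 reads in the control library, against 1066 after depolarization. Its level was 27.2 FPKM (95% interval 26.0 to 28.5) in the control and 14.3 FPKM (13.4 to 15.1) in the depolarized library. The depolarized library was thus the lower one and the intervals of the levels did not overlap. The log2 ratio of Cacna1c was -0.72 (-0.83 to -0.62), or 0.605 times the control value. Among all genes tested, 9.78% had a log2 ratio as low as that of Cacna1c or lower. Low ratios were rarer among well covered genes: with at least 500 reads, 0.855% of 6549 genes lay at or below Cacna1c. Long genes had lower ratios, with a median of -0.12 over the 229 genes of at least 5000 bases and at least 500 reads, of which 3.06% lay at or below Cacna1c. These groups of genes were chosen after the values were seen.

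Cacna1h (chromosome 17, 25511230 to 25570728, minus strand), the T-type pore gene with more reads, had 666 reads in the control and 365 reads in the depolarized library. That gave 20.4 FPKM (18.9 to 22.0) and 10.4 FPKM (9.33 to 11.5). The log2 ratio of Cacna1h was -0.77 (-0.95 to -0.58), close to that of Cacna1c. The reads of Cacna1h per read of Cacna1c, a measure that no scaling between libraries can move, were 0.352 in the control and 0.342 in the depolarized library. The odds ratio of these reads between the libraries was 0.972 (95% exact interval 0.835 to 1.13), so a difference between Cacna1c and Cacna1h in this respect was not detectable at this depth.

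Cacna1g (chromosome 11, 94269705 to 94335414, minus strand), the other T-type gene, had 132 reads in the control library, against 42 after depolarization. Its level was 2.10 FPKM (1.76 to 2.49) in the control and 0.620 FPKM (0.447 to 0.838) in the depolarized library. The log2 ratio of Cacna1g was -1.55 (-2.09 to -1.04), and 2.53% of all genes had one as low. Cacna1g was lower also relative to Cacna1c. The reads of Cacna1g per read of Cacna1c were 0.0698 and 0.0394, an odds ratio of 0.564 (0.386 to 0.811). Cacna1g was the single member whose whole counting interval lay past a log2 ratio of -1.

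Cacna1d (chromosome 14, 30853135 to 31304342, minus strand), the gene of the other L-type pore, known from pacemaker and endocrine cells, was near the lower limit of the measurement. It had 13 reads in the control and 3 reads in the depolarized library, at 0.296 and 0.0635 FPKM. The log2 ratio of Cacna1d was -2.01, but the interval ran from -4.47 to -0.15. Against Cacna1c the odds ratio was 0.409 (0.0746 to 1.49), so a difference from Cacna1c was not detectable with these reads. Exons of 6 members (Cacna1d, Cacna1h, Cacnb1, Cacnb2, Cacnb4 and Cacna2d2) overlap a gene on the opposite strand, and whether reads were counted by strand is not known. Of the overlapping genes, Chdh at Cacna1d had 3 and 4 reads, Gm13269 at Cacnb2 had 4 and 0 reads, and the others had 0.

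**Figure D1:**
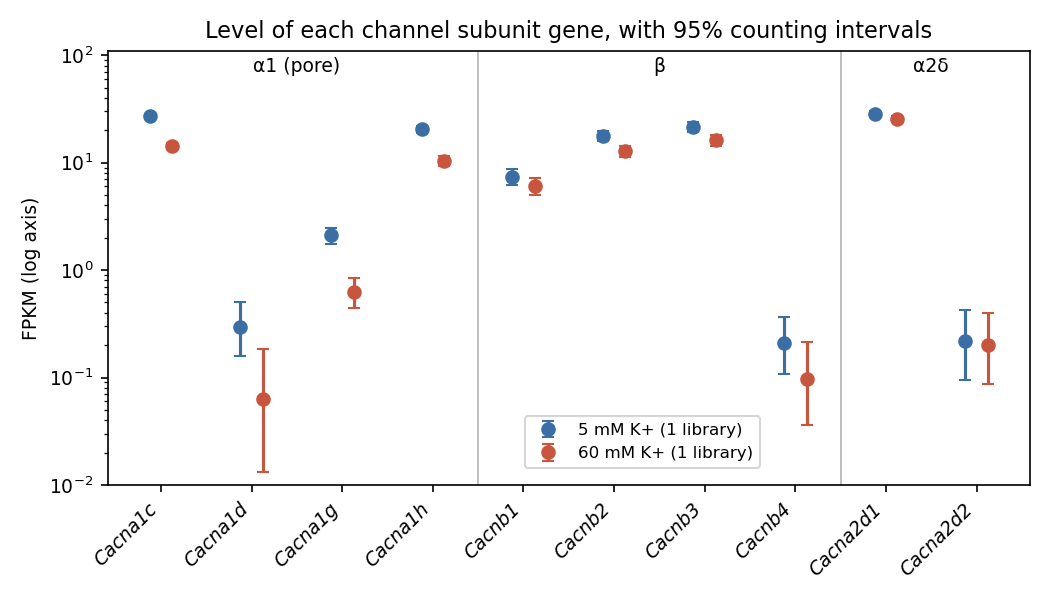
Level of each of the 10 subunit genes in the 5 mM K+ and the 60 mM K+ library, as FPKM on a log axis, with 95% Poisson counting intervals as bars. In these values, scaled by total reads, the depolarized points of all 10 genes sit below their control points. The points of Cacna1c are at 27.2 and 14.3 FPKM and those of Cacna2d1 at 28.7 and 25.3 FPKM.

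The β genes differed less. Cacnb3 (chromosome 15, 98462651 to 98474961), which had the highest level of the class, had 372 reads in the control and 301 reads in the depolarized library. Its level was 21.6 FPKM (19.5 to 23.9) and 16.2 FPKM (14.4 to 18.2), and its log2 ratio was -0.20 (-0.43 to 0.02). Cacnb2 (chromosome 2, 14525933 to 14909535), whose protein is the main β subunit of heart muscle, had 380 reads and 295 reads. It was at 17.7 and 12.8 FPKM, with a log2 ratio of -0.26 (-0.49 to -0.04). The interval of Cacnb2 lay just below 0 and that of Cacnb3 just included it, and their ratio to each other did not separate the libraries: the odds ratio of Cacnb2 to Cacnb3 reads was 0.959 (0.769 to 1.20).

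Cacnb1 (chromosome 11, 97862822 to 97884348), the β gene of skeletal muscle channels, had 140 reads in the control and 123 reads in the depolarized library. That gave 7.40 and 6.03 FPKM and a log2 ratio of -0.09 (-0.45 to 0.27). Cacnb4 (chromosome 2, 52283845 to 52532350), a β gene of the brain, had 12 reads and 6 reads, and its log2 ratio of -0.90 had an interval from -2.60 to 0.63. At this depth no direction of Cacnb4 was detectable. Cacnb3, Cacnb2 and Cacnb1 held 46.0%, 37.8% and 15.8% of the summed β level in the control and 46.2%, 36.4% and 17.2% in the depolarized library. With joined exon lengths from GENCODE vM1, a comparison added after the data were seen, the shares in the control were 61.9% for Cacnb3, 21.4% for Cacnb2 and 16.04% for Cacnb1, and in the depolarized library 61.7%, 20.5% and 17.4%. With either length, the order of the 3 genes was the same in both libraries.

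Of the α2δ genes, Cacna2d1 (chromosome 5, 15440509 to 15880329) had 1012 reads in the control and 963 reads in the depolarized library. The protein of Cacna2d1 is the binding site of gabapentin. Its level was 28.7 FPKM (26.9 to 30.5) and 25.3 FPKM (23.7 to 27.0), and its log2 ratio was 0.03 (-0.10 to 0.16). With total-count scaling the value was -0.18, so its direction depends on the scaling. Cacna2d2 (chromosome 9, 107301943 to 107431677) had 8 reads in each library, a log2 ratio of 0.10 (-1.51 to 1.71). Cacna2d1 held 98.8% and 98.4% of the summed level of the 4 α2δ genes of the genome.

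The pore genes were lower, and Cacnb1, Cacnb2, Cacnb3 and Cacna2d1 were not lower to the same degree, so the classes differed in their proportions. Gene length differed too, at 6620 bases for Cacna1c and 1806, 2043 and 1644 for Cacnb1, Cacnb2 and Cacnb3. With the median of genes of like length subtracted, log2 ratios were -0.58 for Cacna1c, -0.23 for Cacnb2 and -0.21 for Cacnb3. They were -0.05 for Cacnb1 and 0.13 for Cacna2d1. The part of length in the odds ratios below was not tested. Per read of Cacna1c there were 0.535 reads of Cacna2d1 in the control and 0.903 in the depolarized library, an odds ratio of 1.69 (1.50 to 1.90). For Cacnb3 the odds ratio against Cacna1c was 1.43 (1.21 to 1.71), for Cacnb2 it was 1.38 (1.16 to 1.64) and for Cacnb1 it was 1.56 (1.20 to 2.02). For Cacnb4 and Cacna2d2 the intervals, 0.272 to 2.56 and 0.578 to 5.44, held 1. These comparisons with Cacna1c, and those of whole classes, were chosen after the values were seen.

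Summed over each class, the α1 members were at 50.01 FPKM in the control and 25.3 FPKM in the depolarized library, the β members at 46.9 and 35.1 FPKM and the α2δ members at 28.9 and 25.5 FPKM. As a share of the summed α1 level, the β level was 93.9% in the control and 139% in the depolarized library, and the α2δ level was 57.7% and 101%. These shares rest on the lengths behind the deposited FPKM, so which class stood higher depends on them. With joined exon lengths, Cacna1c was at 20.5 and 10.7 FPKM, above Cacnb3 at 11.4 and 8.55 FPKM in both libraries. The values on reads that follow do not use length. On summed reads the log2 ratio was -0.77 (-0.86 to -0.68) for α1, -0.22 (-0.36 to -0.07) for β and 0.03 (-0.10 to 0.16) for α2δ. The odds ratio of β to α1 reads was 1.47 (1.30 to 1.65) and that of α2δ to α1 reads was 1.74 (1.56 to 1.94). Within the pore class, T-type against L-type reads gave an odds ratio of 0.908 (0.786 to 1.05), so the balance of T-type and L-type reads was not detectably different.

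**Figure D2:**
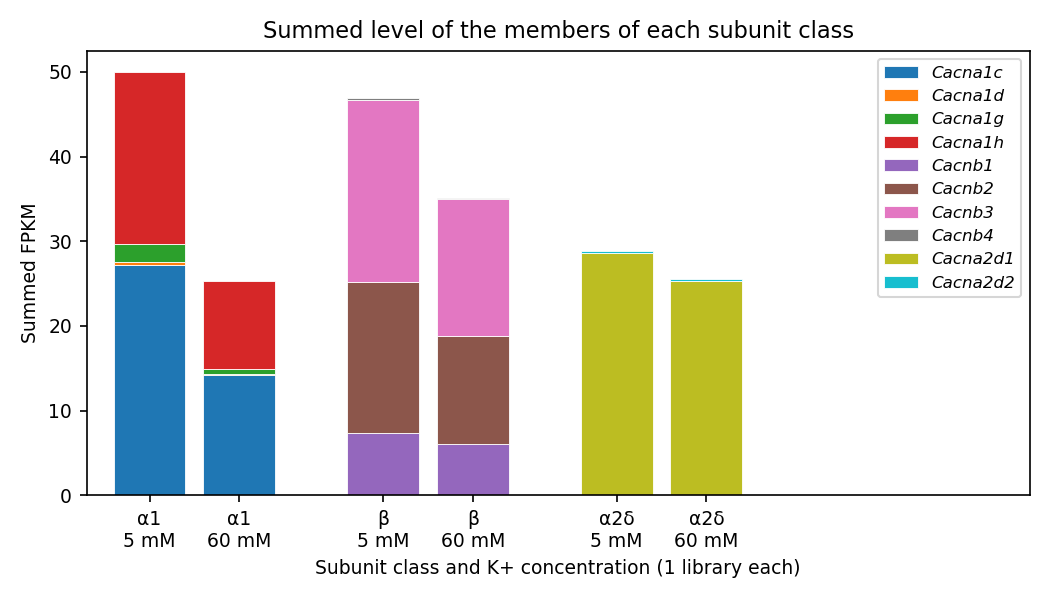
Summed FPKM of the members of each subunit class in each library, stacked by gene, with the axis starting at 0 and no error bars. The α1 sum is 50.01 FPKM in the control and 25.3 in the depolarized library, the β sum 46.9 and 35.1 and the α2δ sum 28.9 and 25.5.

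The order of the levels differed between the libraries. In the control, Cacna2d1 and Cacna1c stood first and their intervals overlapped. Cacnb3, Cacna1h and Cacnb2 followed, each overlapping the next, and then Cacnb1 and Cacna1g, each apart from its neighbors. Cacna1d, Cacna2d2 and Cacnb4 came last and were not told apart. In 60 mM K+, Cacna2d1 stood alone at the top, and Cacnb3, Cacna1c, Cacnb2 and Cacna1h formed a chain of overlapping intervals below it. The order rests on the length behind the deposited FPKM: for Cacna1h this was 3119 bases, whereas all its exons in the GENCODE vM1 annotation join to 9788 bases. With joined exon lengths, Cacna1c came first in both libraries, at 20.5 and 10.7 FPKM, ahead of Cacna2d1 at 11.5 and 10.2. The share of T-type genes in the summed α1 level of the control was then 27.3%, compared with 44.9% with the deposited values. The log2 ratios are computed without a length, although long genes had lower ratios, as given above for Cacna1c.

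Smooth muscle content was set beside these values within each library. The summed marker reads rest mostly on 2 genes: of 415564 in the control, Acta2 had 187183 and Myh11 had 154041. Relative to the summed reads of the 8 smooth muscle markers, the odds ratio between the libraries was 0.551 (0.511 to 0.595) for Cacna1c, 0.536 (0.470 to 0.610) for Cacna1h and 0.311 (0.214 to 0.443) for Cacna1g. For Cacnb2 it was 0.759 (0.649 to 0.886), for Cacnb3 it was 0.791 (0.677 to 0.923) and for Cacna2d1 it was 0.930 (0.850 to 1.02). The markers themselves did not all keep one direction: Cnn1, a calponin gene, had a log2 ratio of 0.32 (0.29 to 0.36), Myh11, the smooth muscle myosin heavy chain, had 0.05 (0.04 to 0.06), and Myocd, the coactivator that drives smooth muscle genes, had 1089 and 704 reads and -0.53 (-0.67 to -0.39). Of the 8 markers, 5 had an interval above 0 and 3 had one below 0. The lowest log2 ratio among them was that of Myocd. Cacna1c, Cacna1g and Cacna1h had lower ratios, but the intervals of Cacna1c and Cacna1h overlapped that of Myocd and were not told apart from it.

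How much variation between pooled libraries would hide these differences can be stated. With an assumed coefficient of variation of 0.1 between libraries, in addition to counting error, the intervals of the 4 pore genes still lay below 0, and that of Cacnb2 no longer did. The same setting left the intervals of 9.3% of all genes below 0. With 0.2, the interval of Cacna1c reached 0.08 and that of Cacna1h 0.05, while that of Cacna1g stayed below 0. The upper end of Cacna1d with 0.2 was -0.03 by the normal approximation used for these intervals, and 0.01 when its wider exact counting interval was extended by the same variation, a form added after the data were seen. The true variation between such libraries is unknown here.

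**Figure D3:**
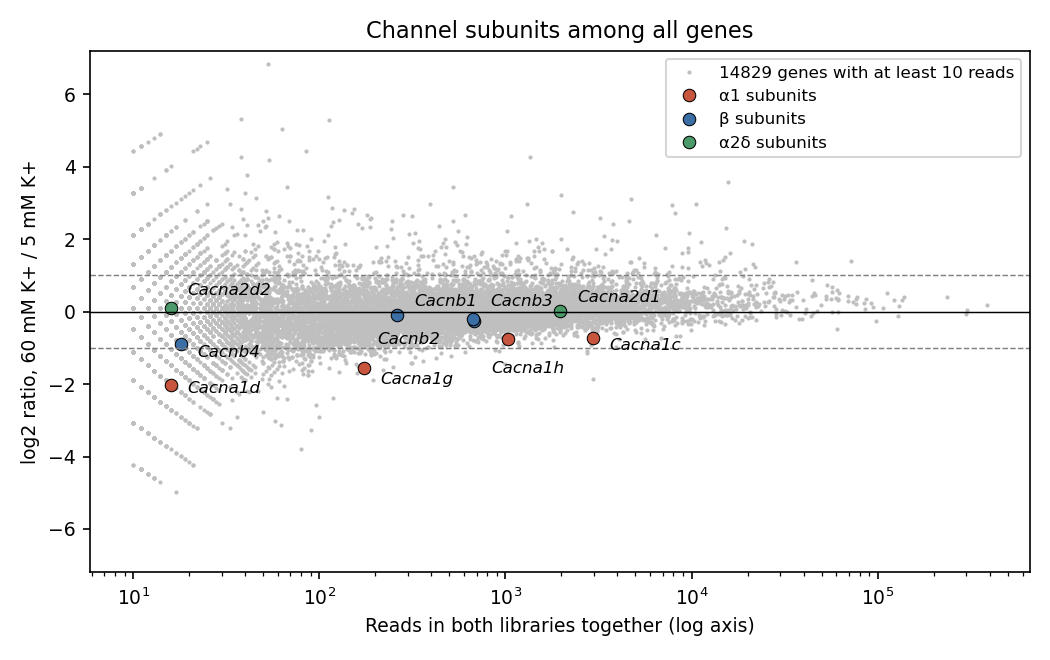
log2 ratio of TMM-scaled reads against the reads in both libraries together (log axis) for 14829 genes in gray, with the 10 members colored by class and dashed lines at -1 and 1. Cacna1c and Cacna1h lie along the lower edge of the genes with similar numbers of reads, and Cacna1g lies below -1.

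The promoters were searched because the study followed CREB, a transcription factor that is phosphorylated after calcium entry and binds the cAMP response element (CRE). RefSeq promoters (GRCm38.p6, from 250 bases before to 50 bases after a transcription start) were at hand for 8 members with 16 promoters. Cacna1g and Cacna1h had no entry. On either strand, the full CRE, TGACGTCA, was in 0 of 16 promoters, and 1.79% of all 32851 promoters hold it. The shorter core TGACG, which is part of the full CRE, was in 3 of 16, or 18.8%, beside 20.8% of all promoters. The CArG box, bound by serum response factor in smooth muscle genes, was in 0 of 16, beside 1.63%, and the GC box GGGCGG was in 9 of 16, beside 35.7%. The 3 promoters with the shorter core are shown up to the base before the start, with the core in capitals, because they belong to 1 gene of each class: Cacna1c (chr6:119196410-119196659, minus strand), Cacnb2 (chr2:14823842-14824091, plus strand) and Cacna2d1 (chr5:15934441-15934690, plus strand).
Cacna1c: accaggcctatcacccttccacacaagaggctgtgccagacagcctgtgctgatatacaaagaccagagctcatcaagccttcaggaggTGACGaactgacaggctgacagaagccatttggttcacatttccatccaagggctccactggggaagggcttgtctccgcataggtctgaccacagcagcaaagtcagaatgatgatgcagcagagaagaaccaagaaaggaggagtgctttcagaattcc
Cacnb2: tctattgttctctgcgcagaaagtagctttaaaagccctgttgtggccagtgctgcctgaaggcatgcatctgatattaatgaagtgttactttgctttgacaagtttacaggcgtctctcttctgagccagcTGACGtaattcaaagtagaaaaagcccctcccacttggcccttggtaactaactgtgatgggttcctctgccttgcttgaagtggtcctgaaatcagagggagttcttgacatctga
Cacna2d1: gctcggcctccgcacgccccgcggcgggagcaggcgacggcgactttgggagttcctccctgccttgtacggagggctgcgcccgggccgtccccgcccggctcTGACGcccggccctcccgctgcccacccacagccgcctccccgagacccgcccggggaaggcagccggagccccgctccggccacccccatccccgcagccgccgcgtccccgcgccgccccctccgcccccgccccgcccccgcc

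The 3 sequences also differ in base composition: G and C make up 51.6% of the stretch of Cacna1c, 46.0% of that of Cacnb2 and 82.4% of that of Cacna2d1. The core was found beside a gene with a log2 ratio of -0.72 (Cacna1c), beside one at -0.26 (Cacnb2) and beside one at 0.03 (Cacna2d1). Which of its promoters a gene used cannot be read from counts per gene, since Cacna1c has 3 entries and Cacnb2 has 2.

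Among the 16 other voltage-gated calcium channel genes, 3 reached 10 reads over both libraries, and none of these 3 passed a log2 ratio of 1 or -1 or had an interval without 0. Cacna1a, which encodes the P/Q-type pore known from nerve terminals, had 142 and 157 reads, at 4.18 and 4.29 FPKM, with a log2 ratio of 0.25 (-0.09 to 0.58). It was the one pore gene with at least 10 reads whose ratio was not below 0. Per read of Cacna1c it gave an odds ratio of 1.96 (1.53 to 2.51). As a share of the summed level of all 10 pore genes of the genome, Cacna1a was at 7.70% in the control and 14.4% in the depolarized library, while Cacna1c was at 50.2% and 47.9%. These shares rest on length, which for Cacna1a was 3242 bases as deposited and 11418 bases with joined exons. On reads, Cacna1a held 4.99% and 9.56% and Cacna1c 66.4% and 64.9%. Exons of Cacna1a also overlap Gm16183 on the opposite strand. Cacng7, a γ gene related to those that accompany AMPA receptors, had 326 and 324 reads, a log2 ratio of 0.09 (-0.13 to 0.32). Cacng4 had 13 and 9 reads.

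The remaining 13 had between 0 and 5 reads in a library. Cacna1s, the L-type pore gene of skeletal muscle, and Cacna1f, that of the retina, had 0 reads in both libraries, as did 5 of the 8 γ genes. A count of 0 allows up to 3 reads, or 0.266 CPM in the control and 0.286 CPM in the depolarized library. Cacna1b, the N-type pore gene of nerve terminals, had 0 and 3 reads.

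Genes whose proteins act on the channel were higher or had intervals that held 0 with TMM scaling, and total-count scaling placed Ahnak and Stac below 0. Of 14 channel partners reported here, 13 had at least 10 reads. Of these, 4 passed a log2 ratio of 1 and none passed -1, beside 5.54% and 5.86% of all genes with at least 10 reads. The partners were chosen with earlier results of these data known, so this count is no independent support. Among the 4, the study's own list of differing genes holds Cbarp, Gem and Rrad as higher and does not hold Stac2. The median log2 ratio of the 13 partners was 0.35. Stac2, of a family of adaptor proteins that bind L-type channels and slow their inactivation, had 20 reads in the control and 133 after depolarization, with a log2 ratio of 2.83 (2.15 to 3.59). Cbarp, whose protein binds β subunits and inhibits calcium channels, had 751 and 1609 reads and 1.20 (1.07 to 1.33), but its exons overlap Stk11 and Atp5d on the opposite strand, so that its value is uncertain. The small GTPases Gem and Rrad, which inhibit the L-type channel through β subunits, were at 1.76 (1.68 to 1.83) and 1.19 (1.13 to 1.26), with 1731 and 5448 reads for Gem and 3046 and 6493 reads for Rrad.

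The other partners lay closer to 0. Calm2 and Calm3, which encode a calcium sensor on the tail of the L-type pore, had log2 ratios of 0.42 and 0.15, and both intervals lay above 0. Of the 13 partners reported here, 8 had an interval above 0 and none had one below 0, beside 25% and 20.3% of all genes. With total-count scaling, tried after the data were seen, 6 lay above 0 and 2 below: Ahnak, a scaffold protein, at -0.04 (-0.08 to -0.01), and Stac, a relative of Stac2, at -0.64 (-1.10 to -0.18). Calm3 was then at -0.06 with an interval that held 0, and Cbarp and Rrad, at 0.99 and 0.98, no longer passed 1. Among all genes, total-count scaling placed the intervals of 13.6% above 0 and of 38.4% below 0.

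**Figure D4:**
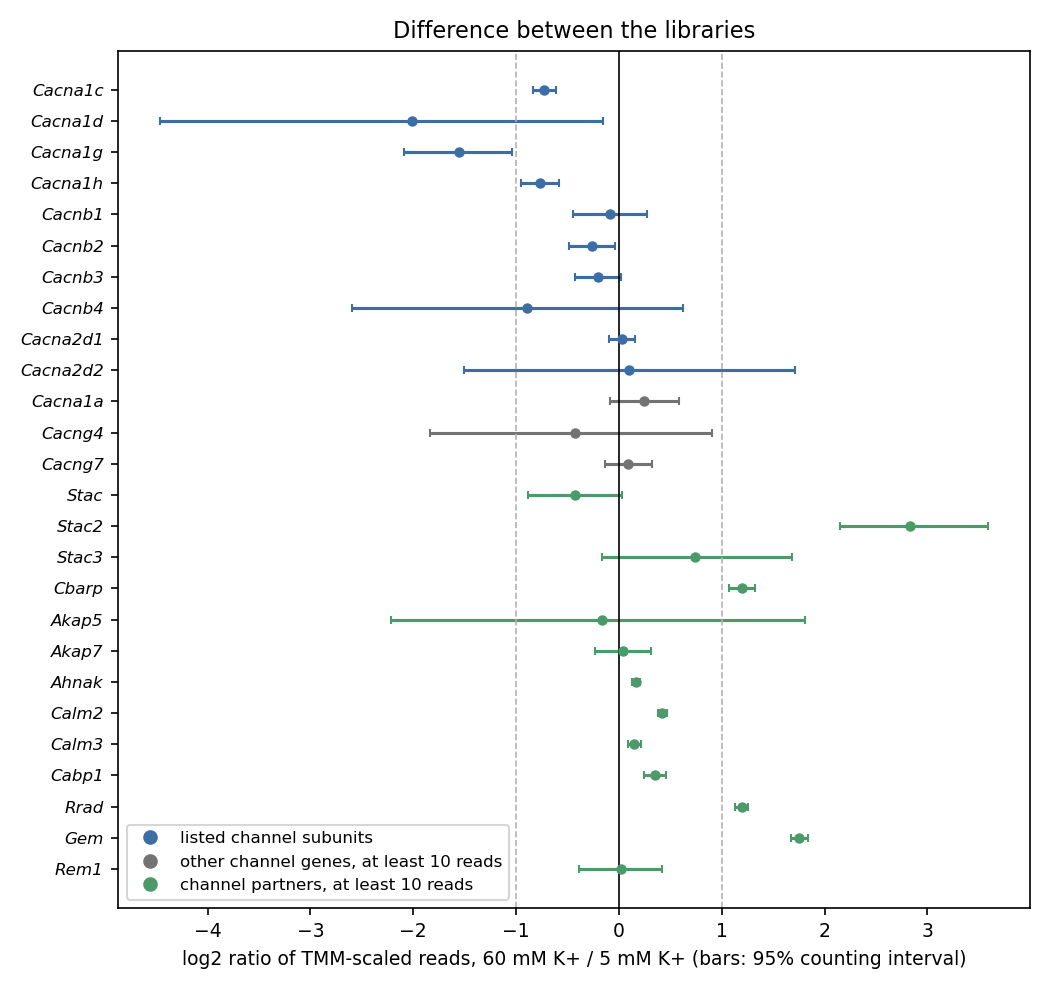
log2 ratio of TMM-scaled reads, 60 mM K+ over 5 mM K+, with 95% counting intervals as bars, for the 10 members (blue), 3 other channel genes (gray) and 13 channel partners (green), with dashed lines at -1 and 1. The 4 pore genes Cacna1c, Cacna1d, Cacna1g and Cacna1h lie left of 0 with their whole intervals, and Stac2, Cbarp, Gem and Rrad lie right of 1.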

How the data were processed

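Per the labels, RNA of mesenteric arteries was selected with poly-T beads and made into NEBNext Ultra libraries. The authors used TopHat2 with the mm9 genome, and deposited the reads of each gene as raw counts and as FPKM. The submitters' processing notes name TopHat2 2.0.12, HTSeq 0.6.1 and edgeR 3.0.8 without a role. The FPKM as deposited rest on each library's total counts, with the same gene length in both libraries. The annotation behind the counts is not given in the sources used here: 32601 of 55573 identifiers are in GENCODE vM1 (mm9), from which positions were taken.

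Scaling by the trimmed mean of M-values (TMM) used edgeR 4.0.16 (R 4.3.3), and a count of 0 was set to 0.5 reads for log2 ratios. The intervals are Clopper-Pearson for ratios and Poisson for levels. A random-sampling test after DEGSeq (q under 0.005, log2 ratio past 1 or -1) was written from its formula as an alternative, since it compares libraries and not conditions; it is not the study's own run. Other scalings were by median of ratios (DESeq2 1.42.0), upper quartile and total counts. Further alternatives were other minimum counts, FPKM with pseudocounts of 0.1 and 1, and assumed variation between libraries. Tested on simulated data for this comparison with 21374 genes, the counting interval held the true log2 ratio for 95.8% of 14827 genes with at least 10 reads. The simulated reads carried counting error only, as the interval assumes, so variation between libraries was not checked. Ratios between genes are conditional odds ratios (scipy 1.17.1).

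The members and gene lists were chosen with earlier results of these data known. Named are all members, other channel genes with at least 10 reads, partners with a log2 ratio past 1 or -1, Calm2, Calm3 and cell type markers; Cacna1s, Cacna1f and Cacna1b were added after their values were seen. A partner gene on the original list is not reported here and was left out of its counts. Older symbols were used to match Cbarp and Adgre1.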

Additional observations from a re-analysis of the deposited data

How the results depend on the processing

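No paired analysis was possible because 5 mM and 60 mM K+ had 1 library each, so none could be left out either. None of the 4 pore members changed direction under the 4 scalings, with FPKM, with a prior of 0.5 reads or with the median of genes of like length subtracted, which gave -0.58 for Cacna1c and was added after the data were seen. With total-count scaling the log2 ratio of summed reads was -0.98 for α1, -0.43 for β and -0.18 for α2δ, by construction of the scaling. That scaling put 3 members past -1, beside 8.67% of all genes. With TMM scaling, members past a log2 ratio of -1 numbered 2 (5.86% of all genes). With a minimum of 50 reads, which 7 members met and Cacna1d with 16 reads did not, 1 was past -1 (1.77%). The count was also 1 with the rewritten random-sampling test (q under 0.005, not the study's own calls, 1.1%). With the nearest interval end past -1 it was 1 as well (0.492%). The 1 member was Cacna1g each time. The interval lay below 0 for 5 members (20.3% of all genes), for 7 with total-count scaling (38.4%), and, with an assumed coefficient of variation of 0.2, for 2 by the normal approximation (3.49%) and for 1, Cacna1g, with the exact interval widened (3.27%). On reads without length, the share of Cacna1c in its class was 66.4% in the control and 64.9% in the depolarized library, and that of Cacnb3 was 41.2% and 41.5%. Depth limits Cacna1d, Cacnb4 and Cacna2d2, with 16 to 18 reads in both libraries together.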
